A study of Rattus norvegicus with 21 samples.

Results

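The cadherin superfamily and 4 catenins were described in rat forebrain astrocytes, taken freshly from the brain or grown in culture. Members were chosen by symbol: Cdh followed by a digit, Pcdh, Celsr, Fat1 to Fat4, Dsc1 to Dsc3 and Dsg1 to Dsg4, with Ctnna1, Ctnna2, Ctnnb1 and Ctnnd1 added. The array measured 47 such genes among 14217 genes with a probe set of their own symbol. They were 16 cadherins of the Cdh series, 8 non-clustered and 9 clustered protocadherins, 6 Celsr and Fat genes, 4 desmosomal cadherins and the 4 catenins. A gene with several probe sets was read from the one with the highest mean over all arrays, and 11 members had more than 1.

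Cadherins are calcium-dependent adhesion proteins that bind a partner, often of the same kind, on the next cell. Classical cadherins hold the actin skeleton through beta-, alpha- and p120-catenin, desmosomal cadherins hold intermediate filaments, and protocadherins lack the catenin-binding tail and serve more in recognition and signalling. In astrocytes N-cadherin carries much of the junctional adhesion, and clustered protocadherins are known in mouse to act in contacts of astrocytes with neurons.

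The series profiled forebrain astrocytes of Sprague Dawley rats on Affymetrix rat genome arrays, with 7 groups of 3 biological replicates and 21 arrays in all. Withdrawn P7 cultures were cells of postnatal day 7 kept for 7 days in 10% foetal calf serum, washed, and kept for 7 more days in medium with HBEGF (heparin-binding EGF-like growth factor). Serum P7 cultures were the same cells after 7 days in 10% foetal calf serum. HBEGF P7 cultures had 7 days with HBEGF at 5 ng/ml and no serum, and fresh P7 cells were lysed straight after isolation. MD cultures were made from postnatal day 1 forebrain by the method of McCarthy and de Vellis, which relies on serum (10%), and were harvested after 7 days. HBEGF P1 cultures and fresh P1 cells were the day 1 counterparts of the HBEGF P7 and fresh P7 groups. All groups but the MD cultures were isolated by immunopanning, in which cells stick to a dish coated with an antibody, here against the integrin ITGB5. The characteristics entry of the HBEGF P7 cultures names P1, whereas their title and source name P7, and the title was followed. Whether a replicate was 1 animal or a pool is not stated, so p-values measure the spread between these arrays. Several contrasts change more than 1 thing at once, and these cannot be told apart. Culture and HBEGF both differ between HBEGF cultures and fresh cells. Serum and the lack of HBEGF go together in serum P7 against HBEGF P7 cultures. Preparation, serum and the lack of HBEGF do so in MD against HBEGF P1 cultures. Against fresh P1 cells the MD cultures differ in preparation, culture and serum. Medium and total time both differ between withdrawn and serum P7 cultures. Past serum and total time (14 against 7 days) both differ between withdrawn and HBEGF P7 cultures. Preparation and age both differ between serum P7 and MD cultures.

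All 7 astrocyte markers (Gfap, Aqp4, Aldh1l1, Slc1a2, Slc1a3, Gja1, S100b) were measured, and their mean per array lay between 11.58 and 13.47 log2 intensity, against a median of 7.11 for all values. The lowest was the glutamate transporter Slc1a2, with a group mean of 6.14 in withdrawn P7 cultures. Markers of other cells were not absent. The mean of 14 fibroblast and meningeal markers was 11.90 to 12.48 in the arrays of withdrawn P7 cultures, 10.54 to 12.34 in serum P7 cultures, 8.38 to 10.99 in HBEGF P7 cultures, 8.55 to 9.46 in fresh P7 cells, 7.23 to 7.54 in MD cultures, 8.83 to 9.24 in HBEGF P1 cultures and 8.04 to 9.28 in fresh P1 cells. In 3 groups 1 array stood apart from the other 2 in the rank correlation over 1 probe set per gene. They were replicate 3 of the withdrawn P7 cultures (0.972 and 0.975), replicate 3 of the serum P7 cultures (0.965 and 0.973) and replicate 2 of the HBEGF P7 cultures (0.952 and 0.966). The other 2 arrays correlated at 0.995 in withdrawn P7 and in serum P7 cultures. In HBEGF P7 cultures they did so at 0.975, so replicate 2 stood apart less clearly there. The highest correlation within a group was 0.995. Calls that are lost or gained without these 3 arrays are named with the value found without them.

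A member was called changed at an adjusted p under 0.05, over all probe sets of the array, and a log2 change of at least 1 in size. Of the 47 members, 22 were called in at least 1 of 11 comparisons. The share of all genes called in at least 1 was not counted. Neither the 22 nor the 25 never called can therefore be read as particular to the members. In fresh P7 against fresh P1 cells 2 members rose and 0 fell, where 1.37% of all genes rose and 0.183% fell. HBEGF P1 cultures against fresh P1 cells gave 0 rises and 6 falls, beside 4.38% and 4.49% of all genes, and HBEGF P7 cultures against fresh P7 cells gave 0 rises and 10 falls, beside 4.78% and 5.51%. MD cultures had 2 rises and 14 falls against fresh P1 cells (10.1% and 9.43% of all genes) and 2 rises and 10 falls against HBEGF P1 cultures (8.81% and 9.57%). Serum P7 against HBEGF P7 cultures gave 4 rises and 8 falls (4.83% and 4.47%). Withdrawn P7 cultures had 2 rises and 1 fall against serum P7 cultures (2.24% and 2.26%) and 4 rises and 7 falls against HBEGF P7 cultures (6.29% and 5.42%). Serum P7 against MD cultures gave 6 rises and 5 falls (7.58% and 6.37%).

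In percent of the 47 members, the falls came to 21.3 in HBEGF P7 cultures against fresh P7 cells and 12.8 in HBEGF P1 cultures against fresh P1 cells. The median log2 change of the members was -0.39 in MD cultures against fresh P1 cells, beside 0.11 for all genes, and -0.14 in HBEGF P7 cultures against fresh P7 cells, beside 0.07 for all genes. In the other 7 comparisons of 2 groups the members' median lay between -0.13 and 0.00. Every called change but that of Cdh11 in serum P7 against HBEGF P7 cultures had arrays that did not overlap between the 2 groups. The same was not counted over all genes, so it cannot be read as particular to the members. With 3 arrays against 3, an exact permutation test of a single gene cannot give a p under 0.1, so the tests rest on the spread shared across probe sets.

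**Figure D1:**
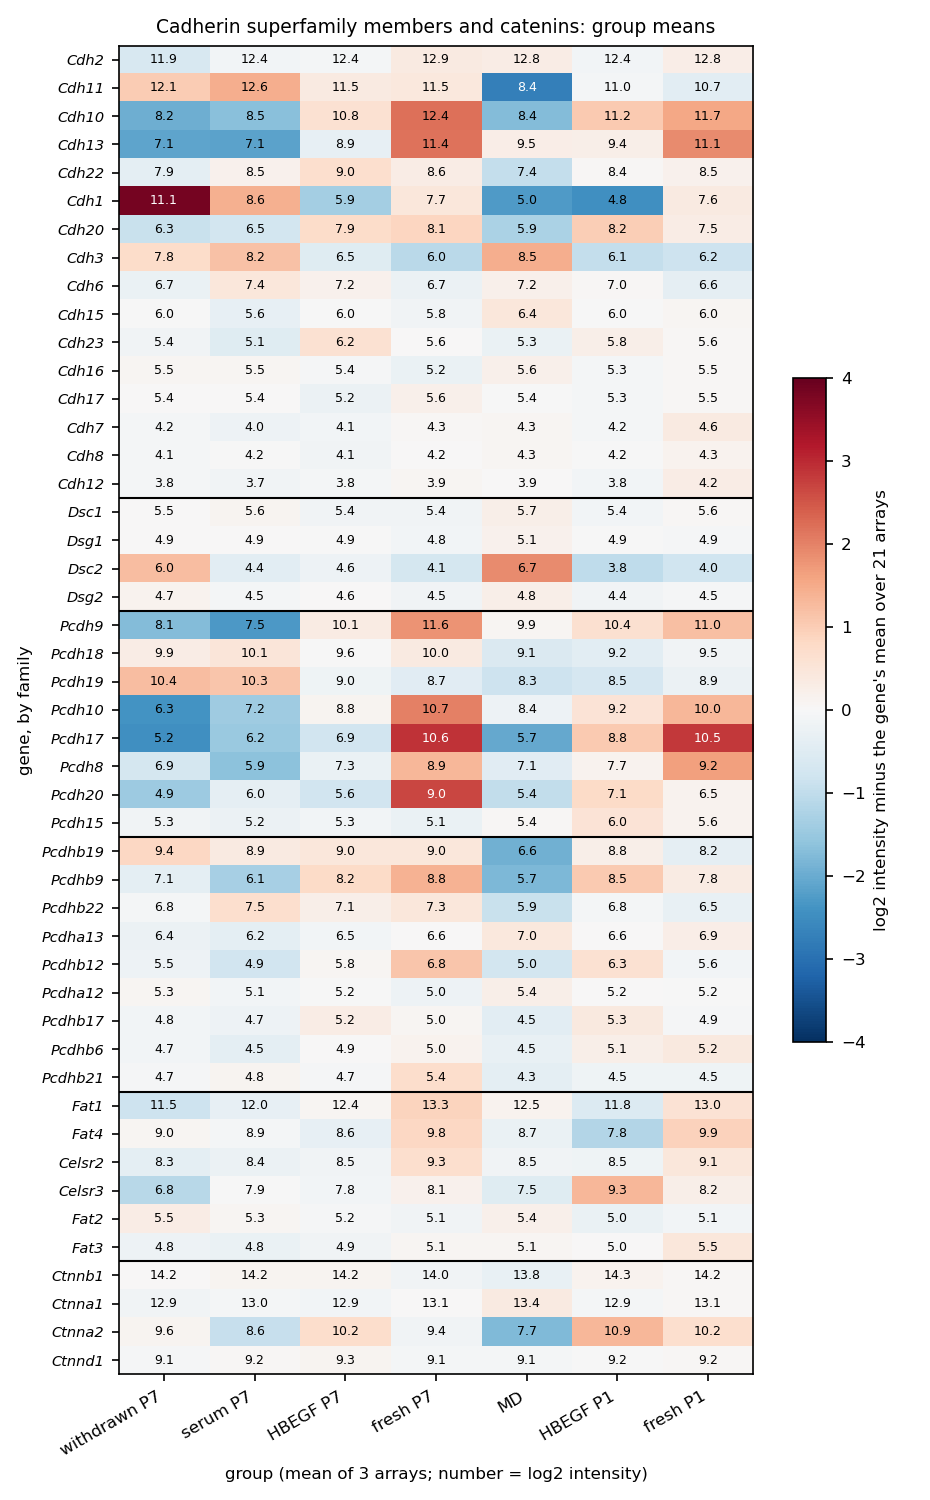
Mean log2 intensity of the 47 members in each group (number in the cell, mean of 3 arrays), coloured by the distance from the gene's mean over 21 arrays, with families divided by lines. Ctnnb1, Ctnna1 and Cdh2 stay near their mean in every column, whereas Cdh1 spans 4.77 in HBEGF P1 cultures to 11.07 in withdrawn P7 cultures.

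The adhesion core of the astrocytes stayed at a high level throughout. Ctnnb1, the beta-catenin that links cadherins to alpha-catenin and also acts in Wnt signalling, had group means between 13.84 (MD cultures) and 14.27 (HBEGF P1 cultures). Ctnna1, the widespread alpha-catenin, lay between 12.89 in withdrawn P7 cultures and 13.40 in MD cultures, and Ctnnd1, p120-catenin, which holds cadherins at the surface, between 9.09 and 9.28. None of these 3 was called in any of the 11 comparisons. At an adjusted p under 0.05 without the limit on size, MD cultures differed from HBEGF P1 cultures by 0.46 in Ctnna1 (adjusted p = 0.000411) and by -0.43 in Ctnnb1 (adjusted p = 0.00155). A dimmer probe set of Ctnnb1 was called higher in serum P7 than in MD cultures, by 1.14 against 0.39 for the one used. Against fresh P1 cells, a probe set with a mean of 12.12 over all arrays was at -0.94 in MD cultures (adjusted p = 0.0077). In HBEGF P1 cultures it was at -0.76 (adjusted p = 0.0451), both under the limit on size. The one used was at -0.32 and 0.11 there. The remaining probe sets were at -0.53 and 0.30 in MD and at 0.32 and 0.11 in HBEGF P1 cultures, not called.

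Cdh2, N-cadherin, had means between 11.87 in withdrawn P7 cultures and 12.87 in fresh P7 cells and was not called in any comparison. Its arrays read 12.52, 12.31 and 10.78 in withdrawn P7 cultures, 12.90, 12.82 and 11.54 in serum P7 cultures and 12.34, 12.42 and 12.57 in HBEGF P7 cultures. The low value in the first and in the second of these groups came from the array that stood apart. Another probe set of Cdh2 was called higher in MD than in HBEGF P1 cultures, at 1.10 log2 against 0.41 for the one used.

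Ctnna2, the alpha-catenin best known from neurons, did move. It read 10.05, 10.15 and 8.69 in withdrawn P7, 8.54, 8.69 and 8.58 in serum P7 and 10.87, 9.29 and 10.56 in HBEGF P7 cultures, and 9.37, 9.15 and 9.67 in fresh P7 cells. MD cultures had 8.10, 7.48 and 7.66, HBEGF P1 cultures 10.85, 10.99 and 10.75 and fresh P1 cells 9.97, 10.44 and 10.19. The MD arrays lay below all others, and the serum P7 arrays lay below those of HBEGF P7 cultures. Ctnna2 was lower by 3.11 log2 (SE 0.36, adjusted p = 4.31e-06) in MD than in HBEGF P1 cultures, and by 1.63 (SE 0.36, adjusted p = 0.00414) in serum P7 than in HBEGF P7 cultures. Against fresh P7 cells the HBEGF P7 cultures were at 0.84 (adjusted p = 0.113), not a call, and at 1.32 (adjusted p = 0.000167), a call, without the 3 arrays that stood apart. Fewer cells of a type and less RNA per cell cannot be told apart in these samples, here or in the results that follow. Of 14 neuron markers, 1 rose and 3 fell in each of these 2 comparisons, with list means per array of 6.89 to 7.13 in MD against 7.32 to 7.68 in HBEGF P1 cultures and 6.24 to 6.50 in serum P7 against 5.98 to 7.67 in HBEGF P7 cultures. Their part in the change of Ctnna2 was not tested.

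E-cadherin and P-cadherin are classical cadherins best known from epithelia. Cdh1, E-cadherin, spread more widely over the groups than any other member, with group means 6.30 log2 apart. It read 10.32, 10.79 and 12.10 in withdrawn P7, 7.97, 8.45 and 9.52 in serum P7 and 6.05, 4.79 and 6.78 in HBEGF P7 cultures, and 7.89, 7.72 and 7.41 in fresh P7 cells. On the day 1 side it read 5.21, 4.74 and 4.97 in MD cultures, 4.77, 4.68 and 4.87 in HBEGF P1 cultures and 7.57, 7.37 and 7.84 in fresh P1 cells. So the withdrawn arrays were the 3 highest of all 21, and MD and HBEGF P1 cultures were at similar low values, well under those of fresh cells.

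Cdh1 was lower than in fresh cells by 2.82 log2 (SE 0.46, adjusted p = 0.00032) in HBEGF P1 cultures and by 1.80 (SE 0.46, adjusted p = 0.00918) in HBEGF P7 cultures. The fall at P7 was not called in a fit of only the compared groups (adjusted p = 0.0546). In MD cultures it was lower than in fresh P1 cells by 2.62 (adjusted p = 0.000244). Serum P7 cultures, in turn, exceeded HBEGF P7 cultures by 2.77 (SE 0.46, adjusted p = 0.000512), or by 1.79 (adjusted p = 0.000285) without the 3 arrays that stood apart, and withdrawn P7 cultures exceeded serum P7 cultures by a further 2.42 (SE 0.46, adjusted p = 0.00473). Withdrawn P7 over HBEGF P7 cultures came to 5.19 log2, a 36.6-fold difference (adjusted p = 2.88e-06), or 4.14 log2, 17.6-fold (adjusted p = 6.73e-07), without the 3 arrays that stood apart. Cells returned to HBEGF medium therefore had more Cdh1 than both serum P7 and HBEGF P7 cultures. A second, dim probe set of Cdh1 stayed near 3.70 and was called in no comparison.

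Cdh3, P-cadherin, lay low in every group that had seen no serum. Arrays read 7.58, 7.84 and 7.86 in withdrawn P7 cultures, 7.51, 7.99 and 9.13 in serum P7 cultures and 8.70, 7.94 and 8.78 in MD cultures. In the remaining groups they read 6.48, 6.75 and 6.41 in HBEGF P7 cultures, 5.93, 5.86 and 6.08 in fresh P7 cells, 6.07, 6.16 and 6.01 in HBEGF P1 cultures and 6.15, 6.19 and 6.29 in fresh P1 cells. The 9 arrays of serum-treated cells were all above the 12 others. Cdh3 rose by 1.66 (SE 0.29, adjusted p = 0.000654) in serum P7 against HBEGF P7 cultures, by 1.21 (adjusted p = 0.00597) in withdrawn P7 against HBEGF P7 cultures and by 2.39 (SE 0.29, adjusted p = 5.9e-06) in MD against HBEGF P1 cultures. The rise in serum P7 and that in MD cultures differed by -0.73 (SE 0.41, adjusted p = 0.284), which did not pass the test, whereas without the 3 arrays that stood apart it was -1.09 (adjusted p = 0.0261) and called. In a fit of only the compared groups the rise in serum P7 cultures had an adjusted p of 0.0576, as had the fall of Ctnna2 one of 0.0582, so neither was called there.

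**Figure D2:**
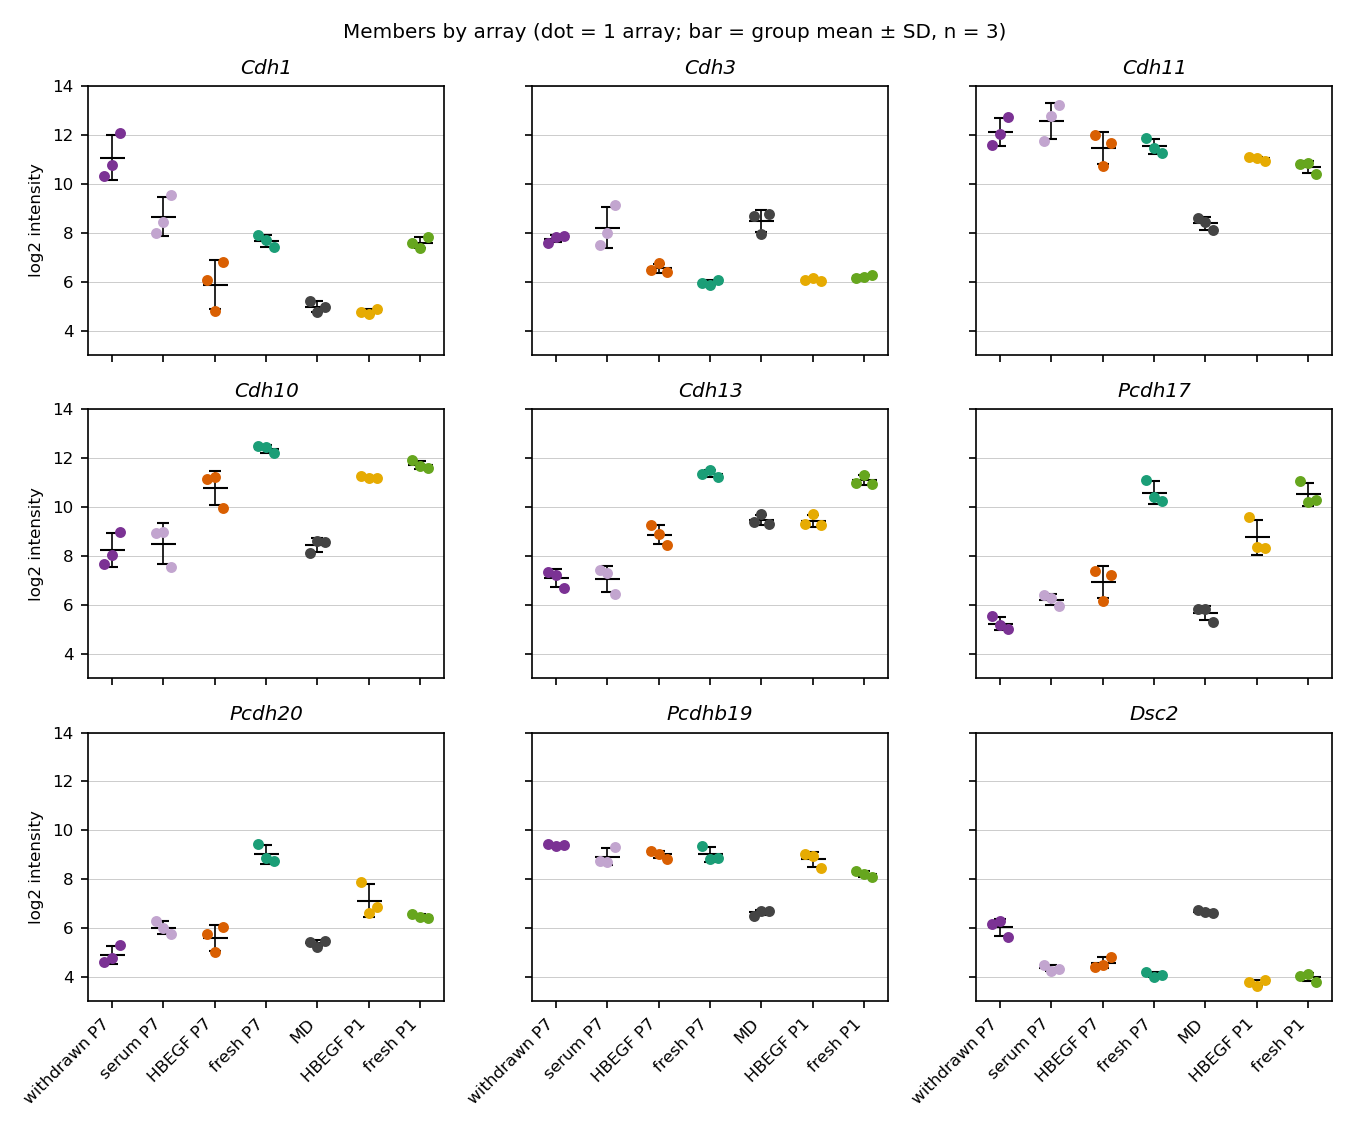
Log2 intensity of 9 members in each array (dots), with the group mean and SD of 3 arrays (bars), for 7 groups. Cdh1 is highest in the 3 withdrawn P7 arrays (10.32 to 12.10), Cdh3 is at 7.51 or more in the serum-treated arrays and at 6.75 or less in the others, and Cdh11 and Pcdhb19 are lowest in MD cultures.

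Fibroblast and meningeal markers moved with Cdh1 in some comparisons and not in others. Of the 14, 6 rose and 0 fell in serum P7 against HBEGF P7 cultures, 11 rose and 0 fell in withdrawn P7 against HBEGF P7 cultures, 12 rose and 0 fell in serum P7 against MD cultures, and 1 rose and 0 fell in withdrawn P7 against serum P7 cultures. In HBEGF P7 cultures against fresh P7 cells, by contrast, 2 rose and 0 fell where Cdh1 fell, and in HBEGF P1 cultures against fresh P1 cells 1 rose and 1 fell where Cdh1 fell. In MD relative to HBEGF P1 cultures 1 rose and 7 fell, with Cdh1 at 0.20 and not called. Within HBEGF P7 cultures the array with the lowest mean of these markers (8.38) also had the lowest Cdh1 (4.79), and the array with the highest mean (10.99) had the highest Cdh1 (6.78). In the same way the serum P7 array with the highest mean (12.34) had the highest Cdh1 (9.52). So had that of withdrawn P7 cultures (12.48 and 12.10), fresh P7 cells (9.46 and 7.89), HBEGF P1 cultures (9.24 and 4.87) and MD cultures (7.54 and 5.21). Only in fresh P1 cells was it otherwise, where the array with the highest mean (9.28) had the lowest Cdh1 of its group (7.37). In MD and HBEGF P1 cultures every Cdh1 value was below the median of all values (7.11). The match was not particular to this list. In every group the array with the highest mean of 13 endothelial markers also had the highest Cdh1, fresh P1 cells included (6.54 and 7.84). Cdh3 did not run alongside the fibroblast and meningeal markers in MD cultures, where Cdh3 was high and the markers' mean was 7.23 to 7.54. In withdrawn P7 against serum P7 cultures 5 of 10 microglia and macrophage markers rose, with list means per array of 7.00 to 8.18 against 5.59 to 5.96, and 4 of 13 endothelial markers, with 6.80 to 7.26 against 6.05 to 6.74. None of either list fell. Of 8 epithelial, ependymal and choroid markers, 1 rose and 0 fell in that comparison, with 6.94 to 7.44 in withdrawn P7 against 6.42 to 7.08 in serum P7 cultures. Epcam of that list was at 4.15 to 4.95 in every group, and Krt8 was at 9.45 in withdrawn P7, 7.71 in serum P7 and 9.63 in HBEGF P7 cultures. The part of these cells in the level of Cdh1 was not tested.

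**Figure D3:**
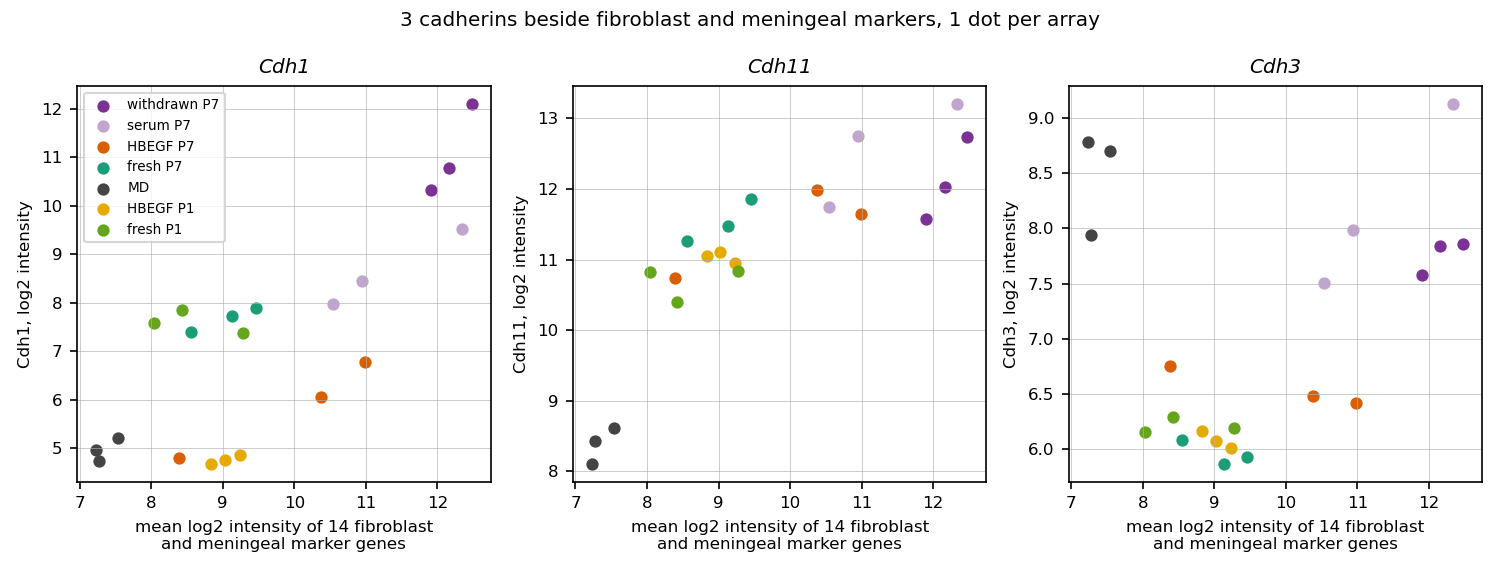
Log2 intensity of Cdh1, Cdh11 and Cdh3 in each array against the mean log2 intensity of 14 fibroblast and meningeal markers, coloured by group. Withdrawn P7 arrays lie at 11.90 or more on the marker axis with Cdh1 above 10, and MD arrays lie at the low end of the marker axis with low Cdh11 and high Cdh3.

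Type II cadherins, a branch of the classical cadherins with members in neural and mesenchymal tissue, gave opposing patterns. Cdh11, known as the cadherin of mesenchyme and osteoblasts, read 11.57, 12.03 and 12.73 in withdrawn P7, 11.75, 12.76 and 13.20 in serum P7 and 11.99, 10.73 and 11.65 in HBEGF P7 cultures and 11.86, 11.48 and 11.26 in fresh P7 cells. It read 8.62, 8.44 and 8.11 in MD cultures, 11.10, 11.05 and 10.95 in HBEGF P1 cultures and 10.82, 10.84 and 10.40 in fresh P1 cells. MD cultures were the low group, with no overlap with any other. Cdh11 fell by 2.65 (SE 0.36, adjusted p = 1.9e-05) in MD against HBEGF P1 cultures and was higher by 4.18 (SE 0.36, adjusted p = 5.72e-07), or 18.1-fold, in serum P7 than in MD cultures. The rise in serum P7 against HBEGF P7 cultures (1.11, adjusted p = 0.0343) had overlapping arrays and was lost without HBEGF P7 replicate 2, where it was 0.75 (adjusted p = 0.164), and without the 3 arrays that stood apart, where it was 0.43 (adjusted p = 0.358). Of 14 fibroblast and meningeal markers, 1 rose and 7 fell in MD against HBEGF P1 cultures. Their part in the fall of Cdh11 was not tested. Of its 2 other probe sets, 1 fell likewise, by 1.54, and 1 that was dim in all groups was not called (0.36).

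Cdh10, a type II cadherin of the nervous system, was high in fresh cells and in HBEGF cultures and low wherever serum had been used. It read 7.67, 8.04 and 9.0 in withdrawn P7, 8.96, 9.0 and 7.53 in serum P7 and 11.13, 11.25 and 9.96 in HBEGF P7 cultures and 12.51, 12.45 and 12.20 in fresh P7 cells. It read 8.12, 8.62 and 8.59 in MD cultures, 11.26, 11.20 and 11.18 in HBEGF P1 cultures and 11.92, 11.66 and 11.58 in fresh P1 cells. Every serum-treated array was below every other array. The falls were 2.28 (SE 0.38, adjusted p = 0.000524) in serum P7 against HBEGF P7 cultures, 2.55 (adjusted p = 0.000232) in withdrawn P7 against HBEGF P7 cultures and 2.77 (SE 0.38, adjusted p = 2.58e-05) in MD against HBEGF P1 cultures. The serum difference of the panned cells and that of the MD cultures were 0.49 apart (SE 0.54, adjusted p = 0.654), or 1.20 (adjusted p = 0.0445, a call) without the 3 arrays that stood apart. Against fresh P7 cells the HBEGF P7 cultures were lower by 1.61 (adjusted p = 0.00547), whereas HBEGF P1 cultures against fresh P1 cells were at -0.51 (adjusted p = 0.433).

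Cdh20, another type II cadherin, was likewise lower in every serum-treated array than in any other, with 6.63, 6.22 and 6.06 in withdrawn P7, 7.02, 6.41 and 5.95 in serum P7 and 8.34, 8.38 and 7.08 in HBEGF P7 cultures and 8.11, 7.84 and 8.22 in fresh P7 cells. It read 5.86, 6.09 and 5.87 in MD cultures, 8.09, 8.58 and 7.92 in HBEGF P1 cultures and 7.36, 7.68 and 7.49 in fresh P1 cells. It fell by 2.26 (SE 0.31, adjusted p = 2.01e-05) in MD against HBEGF P1 cultures and by 1.48 (SE 0.31, adjusted p = 0.00244) in serum P7 against HBEGF P7 cultures. Without the 3 arrays that stood apart the second value was -1.0 (adjusted p = 0.0553), not a call.

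Cdh13, T-cadherin, is anchored by a lipid and has no cytoplasmic tail to hold catenins. Its arrays read 7.36, 7.23 and 6.69 in withdrawn P7, 7.42, 7.32 and 6.46 in serum P7 and 9.25, 8.91 and 8.47 in HBEGF P7 cultures and 11.37, 11.50 and 11.23 in fresh P7 cells. They read 9.40, 9.70 and 9.31 in MD cultures, 9.33, 9.71 and 9.26 in HBEGF P1 cultures and 11.0, 11.32 and 10.95 in fresh P1 cells. Fresh cells were above every culture, and the withdrawn and serum P7 cultures were below every other group. HBEGF cultures were lower than fresh cells by 2.49 (SE 0.25, adjusted p = 1.58e-06) at P7 and by 1.66 (SE 0.25, adjusted p = 0.00013) at P1. Serum P7 cultures were lower again than HBEGF P7 cultures, by 1.81 (adjusted p = 8.75e-05), but MD cultures were level with HBEGF P1 cultures (0.04, SE 0.25, adjusted p = 0.926). Withdrawn and serum P7 cultures differed by 0.02 (SE 0.25, adjusted p = 0.98). All 3 probe sets of Cdh13 fell in these comparisons of HBEGF cultures with fresh cells and of serum P7 with HBEGF P7 cultures.

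The non-clustered protocadherins are single genes, many of them expressed in the developing brain. Those on chromosome 15 in the RefSeq annotation of GRCr8 (Pcdh8, Pcdh17, Pcdh20 and Pcdh9) and Pcdh10 on chromosome 2 were each called lower in 2 or more of the 3 comparisons of cultures with fresh cells. Pcdh17, known in mouse from presynaptic assembly in the basal ganglia, read 5.53, 5.18 and 5.0 in withdrawn P7, 6.38, 6.28 and 5.97 in serum P7 and 7.40, 6.17 and 7.24 in HBEGF P7 cultures, and 11.12, 10.40 and 10.25 in fresh P7 cells. It read 5.81, 5.83 and 5.32 in MD cultures, 9.60, 8.35 and 8.33 in HBEGF P1 cultures and 11.07, 10.20 and 10.29 in fresh P1 cells. No cultured array reached the lowest fresh array. MD cultures were lower than fresh P1 cells by 4.87 log2 (SE 0.36, adjusted p = 2.37e-08), or 29.2-fold. HBEGF cultures were lower than fresh cells by 3.65 (SE 0.36, adjusted p = 1.68e-06) at P7 and by 1.76 (SE 0.36, adjusted p = 0.00215) at P1. The difference between these 2 falls was -1.89 (SE 0.52, adjusted p = 0.106). Of the other probe sets of the gene, 1 passed the test for that difference (-1.60, adjusted p = 0.0384) and 1 did not (-2.04, adjusted p = 0.0567). All 3 probe sets of Pcdh17 were called lower in the 3 comparisons of cultures with fresh cells.

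Pcdh20 was the member that changed most with age in fresh cells. It read 9.46, 8.86 and 8.74 in fresh P7 and 6.58, 6.47 and 6.41 in fresh P1 cells, so the groups were well apart, and the rise was 2.53 log2 (SE 0.30, adjusted p = 0.000192), or 5.78-fold. In culture it read 4.60, 4.78 and 5.32 in withdrawn P7, 6.30, 6.0 and 5.75 in serum P7, 5.77, 5.01 and 6.03 in HBEGF P7, 5.45, 5.23 and 5.49 in MD and 7.88, 6.63 and 6.86 in HBEGF P1 cultures. HBEGF P7 cultures had thus fallen by 3.42 (SE 0.30, adjusted p = 4.46e-07) against fresh P7 cells, and HBEGF P1 cultures stood at 0.64 (SE 0.30, adjusted p = 0.168) against fresh P1 cells. The change in culture differed between P7 and P1 by -4.05 (SE 0.43, adjusted p = 0.000112), the 1 member called there, where 0.162% of all genes were called higher and 0.654% lower. With HBEGF P7 replicate 2 and the other 2 arrays that stood apart left out, Cdh1 was called too, at 1.57 (adjusted p = 0.0182). The second probe set of Pcdh20 gave 2.46 for fresh P7 against P1 cells and -3.63 for the difference between the ages. Withdrawn P7 against serum P7 cultures was -1.12 (adjusted p = 0.0325), a call that was lost with any of 4 single arrays left out (adjusted p up to 0.136). Against HBEGF P7 cultures the withdrawn P7 cultures were at -0.71 (adjusted p = 0.0989), and at -1.21 (adjusted p = 0.0198), a call, without the 3 arrays that stood apart.

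Pcdh8, a protocadherin first described in rat hippocampal neurons as activity-regulated, read 6.98, 7.14 and 6.48 in withdrawn P7, 6.12, 5.91 and 5.70 in serum P7 and 7.34, 7.01 and 7.59 in HBEGF P7 cultures and 9.01, 8.64 and 8.98 in fresh P7 cells. It read 6.93, 7.17 and 7.19 in MD cultures, 7.41, 7.49 and 8.20 in HBEGF P1 cultures and 9.02, 9.19 and 9.38 in fresh P1 cells. Fresh cells were above all cultures and serum P7 cultures below all other groups. It fell by 2.10 (adjusted p = 8.42e-07) in MD cultures and by 1.49 (adjusted p = 9.74e-05) in HBEGF P1 cultures against fresh P1 cells, and by 1.57 (adjusted p = 4.79e-05) in HBEGF P7 cultures against fresh P7 cells. Serum P7 cultures were lower than HBEGF P7 cultures by 1.40 (SE 0.21, adjusted p = 0.000245).

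Pcdh9, a delta protocadherin, had 8.76, 8.33 and 7.09 in withdrawn P7, 7.58, 7.77 and 7.15 in serum P7 and 10.34, 10.46 and 9.59 in HBEGF P7 cultures and 11.78, 11.50 and 11.54 in fresh P7 cells. It had 9.79, 9.83 and 10.02 in MD cultures, 10.80, 10.18 and 10.33 in HBEGF P1 cultures and 11.37, 10.86 and 10.83 in fresh P1 cells. The panned cells with serum were the low groups here, and MD cultures stayed close to HBEGF P1 cultures. The fall was 2.63 (SE 0.33, adjusted p = 4e-05) in serum P7 against HBEGF P7 cultures, and MD against HBEGF P1 cultures was at -0.56 (SE 0.33, adjusted p = 0.199). A second probe set of Pcdh9 did not share this: it was at -0.46 (adjusted p = 0.333) in serum P7 against HBEGF P7 cultures. It was called lower by 2.21 in HBEGF P7 cultures against fresh P7 cells, where the probe set used fell by 1.48 (adjusted p = 0.0033).

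Pcdh10, which is known to engage the actin-regulating WAVE complex through Nckap1, had 6.65, 6.78 and 5.32 in withdrawn P7, 7.73, 7.77 and 6.15 in serum P7 and 9.30, 8.66 and 8.32 in HBEGF P7 cultures and 10.77, 10.66 and 10.53 in fresh P7 cells. It had 8.61, 8.31 and 8.36 in MD cultures, 9.79, 8.94 and 8.85 in HBEGF P1 cultures and 10.34, 9.83 and 9.75 in fresh P1 cells. Withdrawn P7 cultures were lower than HBEGF P7 cultures by 2.51 (SE 0.42, adjusted p = 0.000515), and HBEGF P7 cultures lower than fresh P7 cells by 1.89 (SE 0.42, adjusted p = 0.00321). The fall in serum P7 against HBEGF P7 cultures was 1.54 (adjusted p = 0.0148). Without serum P7 replicate 3 it was -1.01 and not called (adjusted p = 0.0826).

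Pcdh19, whose human gene is linked to an epilepsy of girls, went the other way. It read 10.19, 10.38 and 10.53 in withdrawn P7, 9.69, 10.47 and 10.62 in serum P7 and 9.56, 8.80 and 8.61 in HBEGF P7 cultures and 9.33, 8.44 and 8.34 in fresh P7 cells. It read 8.67, 7.91 and 8.41 in MD cultures, 9.09, 8.77 and 7.56 in HBEGF P1 cultures and 9.31, 8.97 and 8.44 in fresh P1 cells. The rises were 1.27 (adjusted p = 0.0263) in serum P7 and 1.38 (adjusted p = 0.0155) in withdrawn P7 against HBEGF P7 cultures, and 1.93 (SE 0.38, adjusted p = 0.00119) in serum P7 against MD cultures. The rise in serum P7 against HBEGF P7 cultures was lost without some single arrays (adjusted p up to 0.0988) and without the 3 that stood apart (1.00, adjusted p = 0.195). The rise in withdrawn P7 against HBEGF P7 cultures was lost likewise (adjusted p up to 0.0544 without 1 array, and 0.118, at 1.20 log2, without those 3). Pcdh18 rose by 1.05 in serum P7 against MD cultures (adjusted p = 0.00837), and without serum P7 replicate 3 by 0.69 (adjusted p = 0.0531), no longer a call. With all 3 arrays that stood apart left out it was 0.69 (adjusted p = 0.0477), again under the limit on size. Without serum P7 replicate 3 the Pcdh10 difference in the same comparison (-1.21, adjusted p = 0.0412) was -0.68 (adjusted p = 0.244), also not a call, and without all 3 it was -0.68 (adjusted p = 0.11). Pcdh15, a protein of hair cell tip links, stayed between 5.14 and 5.96 in all groups.

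Clustered protocadherins lie in tandem arrays and each cell uses its own set, which gives cells a surface identity. Probes of near-identical family members cannot be fully told apart, and 4 further probe sets that carry several Pcdha or Pcdhg symbols were left out. The 7 Pcdhb members lie within chr18:29320391-29503142 of GRCr8. Promoters of this family are known in mouse and human to share a conserved element, the CGCT box, so the windows around a run of bases they share are shown for the 5 Pcdhb members with a RefSeq promoter in GRCr8 (all on the + strand). Capitals mark the 14 bases GGTGGCGCTGCAGG or, in Pcdhb6, the first 13 of them, GGTGGCGCTGCAG.
Pcdhb6, chr18:29320142-29320195: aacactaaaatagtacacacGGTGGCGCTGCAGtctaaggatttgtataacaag
Pcdhb9, chr18:29379238-29379291: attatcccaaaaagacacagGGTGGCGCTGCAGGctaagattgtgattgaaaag
Pcdhb12, chr18:29413638-29413691: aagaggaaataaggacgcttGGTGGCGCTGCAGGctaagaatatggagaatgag
Pcdhb19, chr18:29478754-29478807: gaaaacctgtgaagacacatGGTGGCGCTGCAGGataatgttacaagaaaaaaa
Pcdhb21, chr18:29492139-29492192: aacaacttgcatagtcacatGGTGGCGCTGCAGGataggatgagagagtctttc

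These runs were taken from the 5 sequences themselves, as the longest that 4 and that all 5 hold, and they were searched on both strands of the RefSeq promoters, 250 bases before to 50 bases after each start. The 14 bases begin 52 bases before the start in Pcdhb9, 98 in Pcdhb12, 74 in Pcdhb19 and 60 in Pcdhb21, and the 13 bases begin 229 before it in Pcdhb6. The 14 bases occur in 10 of 33469 promoters (0.0299%), 9 of them among 19 Pcdhb promoters (47.4%). The 13 bases, which the longer run contains, occur in 13 promoters (0.0388%), 12 of them among the 19 (63.2%). The 9 include the 4 promoters, and the 12 the 5, that the runs were taken from, where a match was fixed in advance. A match is a description of the sequence and not a measured site.

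Genes with these shared bases did not follow 1 pattern. Pcdhb9 read 7.25, 7.08 and 6.84 in withdrawn P7, 5.84, 6.12 and 6.31 in serum P7 and 8.88, 7.33 and 8.36 in HBEGF P7 cultures and 9.48, 8.20 and 8.80 in fresh P7 cells. It read 5.84, 5.69 and 5.42 in MD cultures, 8.87, 8.31 and 8.23 in HBEGF P1 cultures and 7.96, 7.68 and 7.61 in fresh P1 cells. It was low in serum, MD and serum P7 cultures alike, falling by 2.82 (SE 0.33, adjusted p = 4.63e-06) against HBEGF P1 and by 2.10 (SE 0.33, adjusted p = 0.000313) against HBEGF P7 cultures. Withdrawn P7 cultures lay between serum P7 and HBEGF P7 cultures, 0.96 above the first (adjusted p = 0.0915, not called) and 1.14 below the second (adjusted p = 0.0195). The call against HBEGF P7 cultures was lost without HBEGF P7 replicate 1, at -0.79 (adjusted p = 0.103).

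Pcdhb19 read 9.42, 9.36 and 9.38 in withdrawn P7, 8.74, 8.71 and 9.32 in serum P7 and 9.17, 9.03 and 8.85 in HBEGF P7 cultures and 9.35, 8.83 and 8.85 in fresh P7 cells. It read 6.51, 6.72 and 6.70 in MD cultures, 9.03, 8.95 and 8.46 in HBEGF P1 cultures and 8.33, 8.21 and 8.09 in fresh P1 cells. Only the MD cultures were low, below every other array. The fall there was 2.17 (SE 0.18, adjusted p = 1.28e-07) against HBEGF P1 cultures, whereas serum P7 against HBEGF P7 cultures was at -0.09 (SE 0.18, adjusted p = 0.774). Pcdhb22, with group means of 7.51 in serum P7 and 5.94 in MD cultures, differed likewise between those 2 (1.57, SE 0.15, adjusted p = 1.75e-06).

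Pcdhb12 was under the median of all values in every group. It read 5.56, 5.20 and 5.75 in withdrawn P7, 4.58, 5.03 and 5.24 in serum P7 and 6.15, 5.29 and 5.92 in HBEGF P7 cultures and 7.31, 6.48 and 6.73 in fresh P7 cells. It read 4.99, 4.77 and 5.22 in MD cultures, 7.02, 6.05 and 5.93 in HBEGF P1 cultures and 5.72, 5.61 and 5.53 in fresh P1 cells. It rose in fresh P7 against fresh P1 cells by 1.22 (SE 0.29, adjusted p = 0.0274), a call that 4 of 6 single arrays could end (adjusted p up to 0.131) and that a second probe set did not share (0.28). Its fall in HBEGF P7 cultures against fresh P7 cells (-1.05, adjusted p = 0.013) was -0.80 without HBEGF P7 replicate 2 and -0.81 without fresh P7 replicate 1, and then not called. Without the 3 arrays that stood apart it was -0.80 (adjusted p = 0.0594), and the second probe set was at 0.28 here too (adjusted p = 0.436). In serum P7 against HBEGF P7 cultures Pcdhb12 was at -0.84 (adjusted p = 0.0461), and without those 3 arrays it was called at -1.23 (adjusted p = 0.0173). Pcdhb6, Pcdhb17, Pcdhb21, Pcdha12 and Pcdha13 were not called in any comparison.

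Fat and Celsr proteins are giant cadherins known from planar cell polarity and growth control. Fat4, the receptor for Dchs1, fell in HBEGF culture at both ages. It read 9.10, 8.97 and 9.01 in withdrawn P7, 8.26, 8.75 and 9.61 in serum P7 and 9.05, 7.96 and 8.86 in HBEGF P7 cultures and 9.69, 9.84 and 9.79 in fresh P7 cells. It read 8.69, 8.64 and 8.65 in MD cultures, 8.15, 7.92 and 7.21 in HBEGF P1 cultures and 10.29, 9.89 and 9.38 in fresh P1 cells. The fall was 2.09 (SE 0.32, adjusted p = 0.00018) at P1 and 1.15 (SE 0.32, adjusted p = 0.0151) at P7. Without HBEGF P7 replicate 2 the P7 value was -0.82 (adjusted p = 0.0767), not a call, and without all 3 arrays that stood apart it was -0.82 (adjusted p = 0.0305), under the limit on size.

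Fat1, which acts on actin and cell polarity, was among the brightest members, with means of 11.52 to 13.26. It read 11.98, 11.85 and 11.63 in HBEGF P1 cultures and 13.30, 12.95 and 12.60 in fresh P1 cells, a fall of 1.13 (SE 0.27, adjusted p = 0.00607), which was -0.96 without fresh P1 replicate 1. Celsr3, known for guiding axon tracts, read 7.71, 7.67 and 7.02 in MD and 9.35, 9.23 and 9.22 in HBEGF P1 cultures, a fall of 1.80 (SE 0.39, adjusted p = 0.00158). In withdrawn P7 against HBEGF P7 cultures it was at -0.99 (adjusted p = 0.0734), and without the 3 arrays that stood apart at -1.41 (adjusted p = 0.0334), a call. Celsr2, a relative of Celsr3, lay between 8.27 in withdrawn P7 cultures and 9.34 in fresh P7 cells and was not called.

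Among the desmosomal cadherins, Dsc2, a desmocollin, was the 1 that moved, though it was below the median of all values in every group. It read 6.17, 6.28 and 5.64 in withdrawn P7, 4.50, 4.26 and 4.35 in serum P7 and 4.40, 4.49 and 4.84 in HBEGF P7 cultures and 4.20, 3.98 and 4.10 in fresh P7 cells. It read 6.73, 6.66 and 6.60 in MD cultures, 3.79, 3.64 and 3.87 in HBEGF P1 cultures and 4.03, 4.11 and 3.80 in fresh P1 cells. MD and withdrawn P7 cultures stood above all others, and serum P7 cultures did not. The rises were 2.90 (SE 0.15, adjusted p = 1.01e-09) in MD against HBEGF P1 cultures and 1.66 (SE 0.15, adjusted p = 1.44e-05) in withdrawn P7 against serum P7 cultures. Dsc1, Dsg1 and Dsg2 lay between 4.44 and 5.75 in all groups and were not called.

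The panned serum P7 cultures and the MD cultures differed from their HBEGF-grown counterparts in different members. The difference of serum P7 from HBEGF P7 cultures was set against the difference of MD from HBEGF P1 cultures, and 10 members were called, 7 in the positive and 3 in the negative direction, beside 5.02% and 6.29% of all genes. Positive ones were Cdh11 (3.76, SE 0.50, adjusted p = 0.000186), Cdh1 (2.57, adjusted p = 0.0147, or 1.59 and 0.0067 without the 3 arrays that stood apart), Pcdh17 (2.38, adjusted p = 0.0053), Pcdh20, Pcdhb19, Celsr3 and Pcdhb22. Negative ones were Dsc2 (-3.10, SE 0.22, adjusted p = 3.25e-07), Pcdh9 (-2.07, adjusted p = 0.00654) and Cdh13 (-1.84, SE 0.35, adjusted p = 0.00217). The Pcdh9 value held for 1 probe set and not the other, which was at 0.33 (adjusted p = 0.719). Without the 3 arrays that stood apart 15 members were called, and Celsr3 was not (1.53, adjusted p = 0.0782). How many of all genes were called without them was not counted. The 6 gained were Cdh3 and Cdh10 (values above), Cdh22 (1.56, adjusted p = 0.0117), Ctnna2 (1.02, adjusted p = 0.0271), Cdh15 (-1.02, adjusted p = 0.0131) and Fat4 (-1.35, adjusted p = 0.0282). Of 14 fibroblast and meningeal markers, 7 were called positive and 0 negative in this contrast, and their part in it was not tested.

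**Figure D4:**
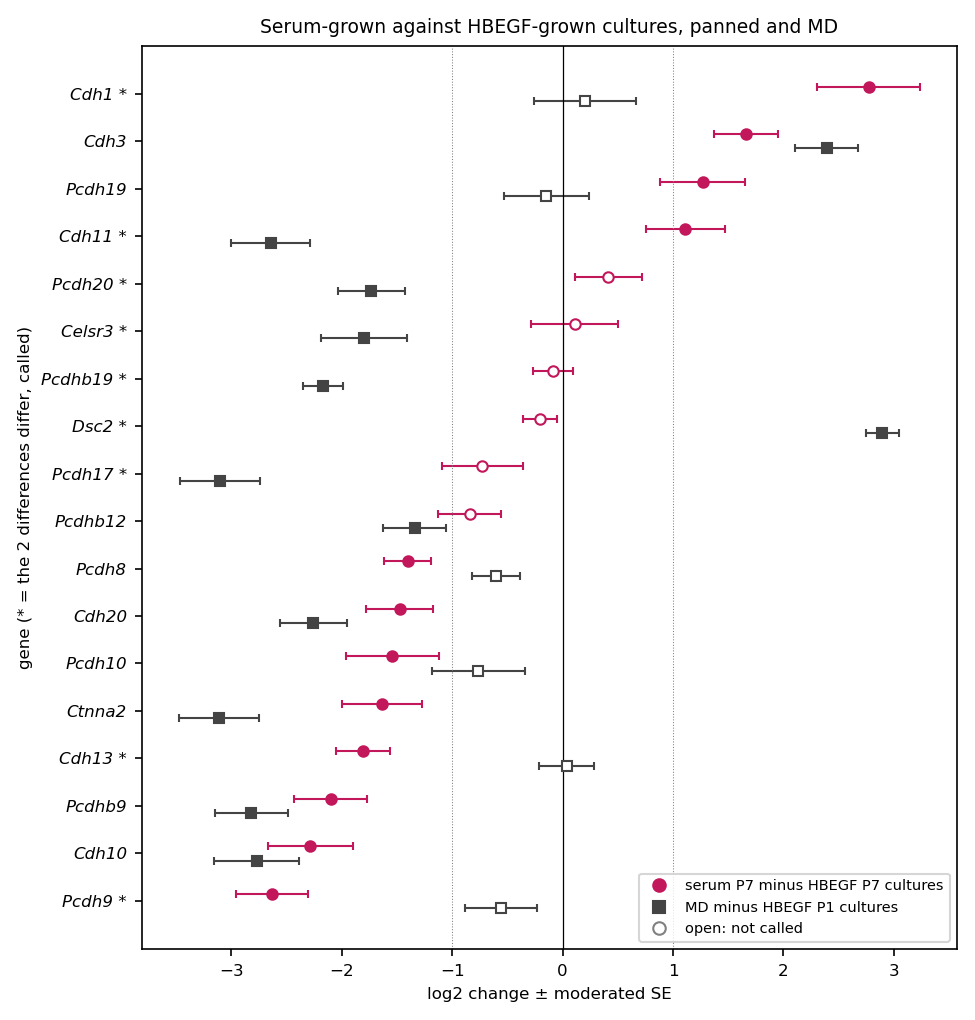
Log2 change with its moderated SE of 18 members in serum P7 minus HBEGF P7 cultures (circles) and in MD minus HBEGF P1 cultures (squares); filled symbols are called and stars mark members whose 2 differences differ. Cdh3, Cdh10, Cdh20, Ctnna2 and Pcdhb9 lie on the same side of 0 in both, whereas Cdh11 lies at 1.11 and -2.65 and Dsc2 at -0.21 and 2.90.

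Between withdrawn and serum P7 cultures 3 of 47 members (6.38%) were called, beside 2.24% of all genes called higher and 2.26% called lower. Of the 3 calls against serum P7 cultures, Cdh1 and Dsc2 rose and Pcdh20 fell, and Cdh10, Cdh13 and Cdh3 stayed -0.26, 0.02 and -0.45 from the serum P7 level (adjusted p = 0.81, 0.98 and 0.435). Ctnna2 was 1.03 higher without passing the test (adjusted p = 0.102). Without withdrawn P7 replicate 3, which stood apart, 6 members were called, with Ctnna2 (1.50, adjusted p = 0.0105), Pcdh8 (1.15, adjusted p = 0.00539) and Pcdh9 (1.05, adjusted p = 0.0226) higher besides. Without all 3 arrays that stood apart 8 were called: Ctnna2 (1.49, adjusted p = 0.000449), Pcdh8 (1.04, adjusted p = 0.00777) and Pcdhb9 (1.18, adjusted p = 0.0302) were higher, and Cdh10 (-1.13, adjusted p = 0.0176) and Pcdh10 (-1.04, adjusted p = 0.0484) lower, besides Cdh1, Dsc2 and Pcdh20. The share of all genes called with arrays left out was not counted. In a fit of only the compared groups the rise of Cdh1 did not pass (adjusted p = 0.0614).

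The 25 members that were never called with all arrays in the fit included 18 that were below the median of all values in every group. The 7 brighter ones were Ctnnb1, Ctnna1, Cdh2, Ctnnd1, Celsr2, Cdh22 and Cdh6. Over these 25, group means spread by 0.19 (Ctnnd1) to 1.64 (Cdh22). Cdh22, a type II cadherin, had the widest of these spreads, from 7.37 in MD cultures to 9.01 in HBEGF P7 cultures, with arrays of 8.60, 8.29 and 6.92 in withdrawn P7 and 9.43, 8.80 and 7.22 in serum P7 cultures. Without the 3 arrays that stood apart, Cdh22 was called in serum P7 against MD cultures (1.75, adjusted p = 0.000153, against 1.12 and 0.114 with them), and Cdh22 and Cdh15 were called in the contrast of preparations given above.

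Genes that work with cadherins were followed as a list of 49 symbols, of which 39 were measured. Beside 8.81% and 9.57% of all genes, 13 of the 39 rose and 6 fell in MD against HBEGF P1 cultures. They included the plakophilin Pkp2, a desmosome plaque protein (3.32, adjusted p = 9.8e-09), Nectin3, an adhesion protein of junctions (2.84), the actin cross-linker Actn1 (2.62) and Prickle2, of planar polarity (-2.23). Beside 4.83% and 4.47% of all genes, 8 rose and 3 fell in serum P7 against HBEGF P7 cultures. Among them were Pkp1 (2.89), Snai1, a repressor of Cdh1 in epithelia (2.87, SE 0.20, adjusted p = 1.14e-07), Prickle1 (2.19) and Twist1 (1.72).

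Snai1 and Cdh1 both rose in that comparison. The other comparisons in which Snai1 was called were singled out after their values were seen. In withdrawn P7 against HBEGF P7 cultures Snai1 rose (2.11, adjusted p = 4.48e-06) where Cdh1 rose by 5.19. In MD cultures against fresh P1 cells Snai1 rose (1.71, adjusted p = 3.25e-06) where Cdh1 fell by 2.62. In MD against HBEGF P1 cultures Snai1 rose (2.12, adjusted p = 4.32e-07) where Cdh1 was at 0.20. A link between the 2 genes was not tested. In withdrawn P7 against HBEGF P7 cultures 6 of the list rose and 6 fell (6.29% and 5.42% of all genes). Withdrawn P7 against serum P7 cultures gave 0 rises and 2 falls (2.24% and 2.26%). The falls were those of Fzd3 (-1.29) and Wasf1 (-1.37), a subunit of the WAVE complex. MD cultures had 12 rises and 6 falls against fresh P1 cells (10.1% and 9.43% of all genes). Serum P7 had 4 rises and 5 falls against MD cultures (7.58% and 6.37%). HBEGF P1 cultures against fresh P1 cells had 5 rises and 4 falls (4.38% and 4.49% of all genes), led by Prickle1 (-2.64) and Lmo7 (-2.27). HBEGF P7 cultures against fresh P7 cells had 3 rises and 4 falls (4.78% and 5.51% of all genes). They were led by Fjx1 (-1.88), a kinase-like regulator of Fat and Dchs binding, and Twist1 (1.68). The armadillo protein Jup, plakoglobin, was the 1 of 39 that rose in fresh P7 against fresh P1 cells (1.17, adjusted p = 0.00494), and none fell. Of all genes 1.37% rose and 0.183% fell there.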

How the data were processed

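The deposited values are 1 intensity per probe set and array, made by the authors with RMA per the submitters' processing notes. Neither the RMA software nor the chip definition is named in the sources. The intensities ran from 10 to 37801, with array medians of 128 to 146, so log2 of the deposited intensity was used. Of 31042 probe sets, 20826 carried 1 symbol. No filter on low values was applied to the main tests.

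Groups were compared with limma 3.58.1 in R 4.3.3, fitting all 7 groups together (14 residual degrees of freedom, to which limma's prior added 2.89). Adjusted p is Benjamini-Hochberg over all probe sets of a comparison, SE is the moderated standard error (median 0.17 log2), and both are of limma. 2 contrasts compared differences. The code was tested on simulated data. The main fit held no term for the replicate number, so its tests are unpaired. The number entered only as a block in an alternative fit. The correlation of the deviations of same-numbered arrays from the group means was over 0.1 in all 3 pairs of these comparisons: HBEGF P1 against fresh P1 (0.24 to 0.408), MD against fresh P1 (0.157 to 0.306), MD against HBEGF P1 (0.281 to 0.481) and withdrawn P7 against serum P7 (0.283 to 0.521). Named were the 6 largest called rises and 6 largest called falls of a comparison, Cdh2, the catenins, the brightest members never called, and up to 4 called partners. The 3 arrays per group limit the precision. Members, lists and tests were chosen with earlier results of these data known. Sequences are RefSeq's (GRCr8), with 45 of 47 members matched.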

Additional observations from a re-analysis of the deposited data

Results flagged for a closer look

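A total of 11 results stood out because the difference between 2 contrasts itself passed the test. The change in culture (HBEGF culture minus fresh cells) differed between P7 and P1 for Pcdh20 by -4.05 log2. The serum difference of panned P7 cells (serum P7 minus HBEGF P7 cultures) exceeded that of MD cultures (MD minus HBEGF P1 cultures) by 3.76 for Cdh11, 2.57 for Cdh1, 2.38 for Pcdh17, 2.15 for Pcdh20, 2.09 for Pcdhb19, 1.91 for Celsr3 and 1.25 for Pcdhb22. It fell short of it for Dsc2 (-3.10), Pcdh9 (-2.07) and Cdh13 (-1.84). Preparation and age cannot be told apart in the second contrast, and the MD side of it changes preparation, serum and HBEGF at once. The Celsr3 value lost its call without any 1 of 8 arrays among 12 (adjusted p up to 0.0788). In the second probe sets of the genes, Pcdh9 was at 0.33 and Cdh1 at -0.14, neither called, and Pcdh20 was at 1.59 (adjusted p = 0.0588).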

How the results depend on the processing

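The 94 called changes of members were recomputed under alternatives fixed with the tests and, chosen after seeing the data, with the 3 arrays that stood apart left out. None of the 94 reversed, 73 stayed called in every alternative and 16 were lost without some single array. A fit of only the compared groups lost 13 (adjusted p 0.0546 to 0.186; Cdh1, Cdh3, Cdh11, Cdh20, Ctnna2, Pcdh10, Pcdh18, Pcdh19, Pcdhb9, Pcdhb12 or Celsr3), the 3 arrays left out 9, another quantile normalization 1 and median centring of the arrays 1. The probe set with the highest variance, a filter on dim probe sets, a trended robust variance, the replicate block and no limit on size lost 0. In 4 comparisons every same-numbered pair deviated together (withdrawn P7 against serum P7, MD against fresh P1, MD against HBEGF P1, and HBEGF P1 against fresh P1), and there the replicate block changed no call. In none of the other 7 did every same-numbered pair correlate over 0.1. For the change in culture at P7 against P1 14 of 18 pairs did, and for the serum difference by preparation 11 of 18. In the comparisons of 2 groups among them 0 of 3 or 2 of 3 pairs did. Whether the numbers pair the arrays in these 7 comparisons cannot be told. There the block added Pcdhb9 in fresh P7 against fresh P1 cells, Cdh23 in serum P7 against HBEGF P7 cultures, and, for the change in culture at P7 against P1, Pcdh17 (-1.89, adjusted p = 0.0176) and Pcdhb12 (-1.76, adjusted p = 0.0276), so that this count was 3 in place of 1. No other count moved by over 1.5 times with it. With no limit on size, 5 members in place of 2 were called in fresh P7 against fresh P1 cells, 10 in place of 6 in HBEGF P1 cultures against fresh P1 cells, 23 in place of 12 in MD relative to HBEGF P1 cultures and 6 in place of 3 in withdrawn P7 against serum P7 cultures. With dim probe sets left out the first count was 1. With only the compared groups in the fit, 6 in place of 12 were called in serum P7 against HBEGF P7 cultures. All 13 losses of that fit were in comparisons that hold HBEGF P7, serum P7 or withdrawn P7 cultures. For Cdh1 these groups had an SD of 1.01, 0.80 and 0.92, against 0.09 to 0.25 in the other groups. Without the 3 arrays that stood apart, 8 were called in withdrawn P7 against serum P7 cultures and 2 for the change in culture at P7 against P1. With any 1 array left out, counts ran from 1 to 3 in fresh P7 against fresh P1 cells, 5 to 6 and 9 to 11 in HBEGF P1 and HBEGF P7 cultures against fresh cells, 14 to 16 and 12 to 13 in MD cultures against fresh P1 cells and HBEGF P1 cultures, and 9 to 12 in serum P7 against HBEGF P7 cultures. They ran from 2 to 6 and 9 to 13 in withdrawn P7 against serum P7 and HBEGF P7 cultures, 9 to 11 in serum P7 against MD cultures, 1 to 2 for the change in culture by age and 9 to 11 for the serum difference by preparation. What caused these shifts in the counts was not tested. How many of all genes were called under the alternatives was not counted, so these counts cannot be read as particular to the members. Signal limits 20 members, which lay below the median of all values in every group, so that a change among them may be missed.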

Other observations

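Cdh3 (chr19:51303414-51353900) and Cdh1 (chr19:51402178-51471572) lie next to each other in GRCr8, with 0 protein-coding genes between them, and moved together in some comparisons and apart in another. In MD cultures Cdh3 averaged 8.47 ± 0.47 and Cdh1 4.97 ± 0.23 log2 intensity (SD, n = 3 each), and in fresh P1 cells Cdh3 averaged 6.21 ± 0.07 and Cdh1 7.60 ± 0.24 (SD, n = 3 each), on probe sets whose levels are not comparable with each other. Cdh3 was therefore higher, and Cdh1 lower, in MD cultures than in fresh P1 cells. In withdrawn P7 and in serum P7 against HBEGF P7 cultures both were called higher. Among the 47 members, 13 map to chromosome 18, which holds the Pcdhb genes and the desmosomal cadherins, and 7 each to chromosomes 2 and 19.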
